A study of Homo sapiens with 8 samples.

Results

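CDT1, GMNN (which encodes geminin), CDC6, DTL (which encodes CDT2), KMT5A, TDG and SLBP are 7 genes chosen by name. They lie in or beside the control that limits DNA replication to 1 round per cell cycle. They were found by symbol among the 61533 gene identifiers of the count tables. All 7 passed the filter on low counts, which left 18738 genes for testing. The RNA came from A431, an established line of a human epidermoid carcinoma, and CAL27, an established line of a squamous carcinoma of the tongue. Each line was treated for 16 h with DMSO, the solvent control, or with a compound labelled NEDD8i, an inhibitor of the pathway that attaches the ubiquitin-like protein NEDD8 to other proteins. This made 4 groups of 2 libraries: A431 with DMSO, A431 with NEDD8i, CAL27 with DMSO and CAL27 with NEDD8i. The labels name no genetic change in any group, and all 4 shared growth below confluence and fresh medium at treatment. The labels name the compound only as NEDD8i, and the file headers mark its libraries as MLN without saying more. Neither its dose nor the media is given in the sources used here. Each cell line stands for 1 tumour, and a difference between the lines cannot be told apart from any other difference between those tumours.

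Before replication starts, ORC, CDC6 and CDT1 load the MCM helicase onto origins, which is called licensing. Geminin binds CDT1 and blocks further loading. CRL4-CDT2 is a ubiquitin ligase built on the scaffold CUL4 and active only when NEDD8 is attached to that scaffold. Its receptor CDT2 recognises substrates bound to PCNA on chromatin, among them CDT1, the histone H4 lysine 20 methyltransferase KMT5A and the DNA glycosylase TDG, and marks them for degradation. SLBP binds the stem-loop at the end of histone mRNAs, and its protein is also removed as S phase ends. All of this control acts on proteins, whereas the libraries measured RNA. Protein levels and DNA content were not analysed here.

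The bases before the starts of CDT1, GMNN, CDC6 and DTL are shown because these genes hold E2F-type sequences there, the kind of site read by the E2F factors that drive genes of the G1 to S transition. Sequences are from RefSeq, build GRCh38.p14, plus strand, 5′ to 3′. Capitals mark each match to TTTCCCGC, TTTCCCGG, TTTCGCGC, TTTCGCGG, TTTGCCGC, TTTGCCGG, TTTGGCGC or TTTGGCGG on either strand. Each stretch is 30 bases, and the GMNN stretch lies before the second of its 2 RefSeq starts.
CDT1, chr16:88803747-88803776: ggcgcccGCGGGAAATTTGGCGGgaaccgc
GMNN, chr6:24775322-24775351: gctgggtcggtTTTGGCGCgctctcacttc
CDC6, chr17:40287840-40287869: cgaggccgggcTTTGGCGGgaggtgggaac
DTL, chr1:212035718-212035747: caatcagagagcgtgacgtcagTTTGGCGC

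With the last base before the start counted as -1 and the first base of the transcript as 1, CDT1 held a match on the minus strand at -35 to -28 directly beside one on the plus strand at -27 to -20. The match before GMNN lay at -80 to -73, that before CDC6 at -28 to -21 and that before DTL at -8 to -1. CDC6 and DTL each had a further match just after the start, at 8 to 15 and at 5 to 12. KMT5A had 1 match at 31 to 38 from the first of its 2 starts. No match stood in the windows of TDG and SLBP, of the first GMNN start or of the second KMT5A start. The windows were 300 bases long, from 250 before the start, and 6.19% of 35116 such windows held a match. The CCAAT box, CCAAT on either strand and a frequent element of cell cycle promoters, stood in the windows of GMNN (2 matches), CDC6 (3), DTL (1), KMT5A (1) and TDG (1), and in 34.6% of all windows. It overlapped none of the E2F-type matches in these genes. In the gene models of the count tables the first exon of DTL begins before the bases shown. A match describes letters and does not show that a factor was bound.

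The 8 libraries held 49037868 to 62509817 counts, and between 19681 and 23822 genes were counted in each. Libraries of 1 group correlated across genes with r = 0.981 to 0.986, and none stood apart from its partner. All 10 keratinocyte and squamous markers examined, such as KRT5 and TP63, reached at least 108.6 CPM (the count scaled to its library's size, with TMM factors) in every library. The summed level of 6 fibroblast markers was 35.4 to 39 CPM in A431 with DMSO and 17.6 to 18.4 with NEDD8i, and 20.8 to 24.1 and 6.49 to 10.8 CPM in CAL27. That of 5 endothelial markers was 19.6 to 21.9 and 5.23 to 5.56 CPM in A431, and 6.13 to 6.63 and 10.6 to 10.8 CPM in CAL27. That of 6 leukocyte markers was 6.38 to 6.78 and 0.875 to 1.78 CPM in A431, and 16.3 to 17.8 and 1.74 to 1.77 CPM in CAL27, and PTPRC, which defines leukocytes, had 0 counts in all 8. Other genes share 100% of the exonic bases of CD68, so its reads were not counted, and most of the leukocyte sum was CD14. The part of these low levels in the results was not tested. Whether replicate libraries came from separate cultures is not stated in the labels. The p-values therefore reflect the spread between these samples alone, and that spread may be technical.

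In A431, 5 of the 7 genes rose with NEDD8i and none fell: CDC6, DTL, KMT5A, TDG and SLBP. At an adjusted p under 0.05, 22.5% of all genes tested were called higher, 21.1% lower and 43.6% in either direction. In CAL27 all 7 rose and none fell, against 23.2% of all genes higher, 26.4% lower and 49.6% in either direction. Both lines shared the 5, where 13.3% of all genes were higher and 12.8% lower in both. These shares include genes with low counts. With a filter of at least 1 CPM in both libraries of a group, 4085 of 13747 genes were higher in A431 and 3988 lower. In CAL27, 4311 were higher and 4756 lower. The median log2 change of the 7 was 0.50 in A431 and 0.63 in CAL27, and that of all genes was -0.01 and -0.04. In A431, 51.7% of all called genes were higher. That share was 41.6% with library sizes left unscaled, which moved the A431 median of all genes to -0.11. The libraries of the 2 treatments did not overlap for 6 of the 7 genes in A431 and for all 7 in CAL27, with the NEDD8i libraries above. The same held for 32.9% and 35% of all genes. In bulk RNA a change in the number of cells that carry a transcript and a change in the RNA per cell cannot be told apart.

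**Figure D1:**
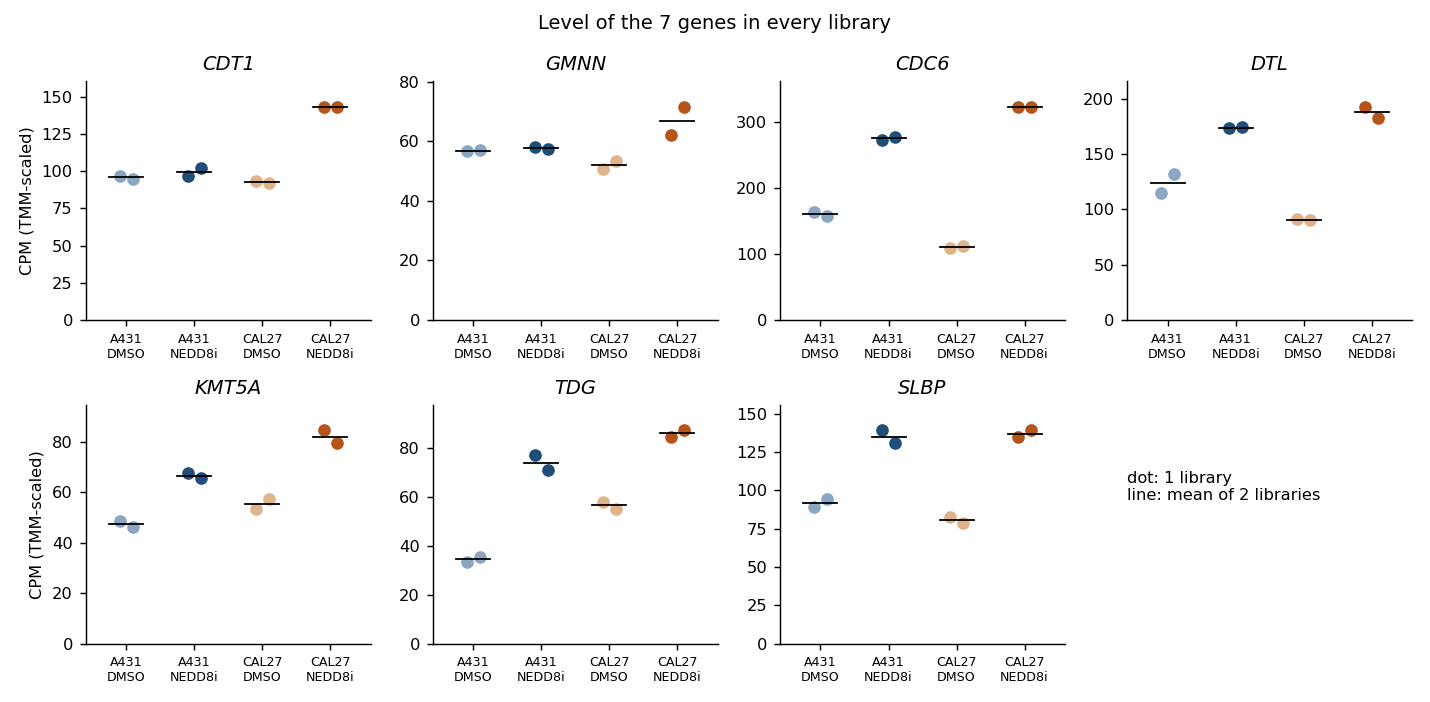
Level of each of the 7 genes in CPM (TMM-scaled, axes from 0) in the 8 libraries. Dots are libraries and lines are means of 2. CDC6 shows the widest separation, from 108 to 111 CPM in CAL27 with DMSO to 323 with NEDD8i, while the A431 dots of CDT1 and GMNN lie at nearly equal heights.

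CDC6 (ENSG00000094804.12, GRCh38 chr17:40287879-40304657, plus strand, 12 merged exons) encodes the ATPase that joins ORC at origins and recruits the helicase with CDT1. It stood at 163 and 158 CPM in the A431 DMSO libraries and at 272 and 277 CPM with NEDD8i. In CAL27 it stood at 108 and 111 CPM with DMSO and at 323 and 323 CPM with NEDD8i. In each line both NEDD8i libraries lay far above both DMSO libraries, and CAL27 had the lowest as well as the highest levels of the 8. The log2 rise in CAL27 was 1.55 ± 0.05 (approximate SE), or 2.94-fold (edgeR adjusted p = 2.03e-14), and in A431 it was 0.78 ± 0.04 (edgeR adjusted p = 2.41e-10). The rise in CAL27 exceeded that in A431 by 0.78 ± 0.06 on the log2 scale (edgeR adjusted p = 4.85e-08).

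CDT1 (ENSG00000167513.9, chr16:88803789-88809258, plus strand, 10 merged exons) encodes the loading factor that CRL4-CDT2 destroys in S phase. Its level was 97.1 and 94.6 CPM in A431 with DMSO and 96.8 and 102 CPM with NEDD8i. It was 93.2 and 92.4 CPM in CAL27 with DMSO and 143.4 and 143.1 CPM with NEDD8i. The A431 groups overlapped, and only the CAL27 NEDD8i libraries stood apart from the other 6. CDT1 rose by 0.63 ± 0.05 in CAL27, or 1.54-fold (edgeR adjusted p = 2.12e-08). In A431 the log2 change was 0.06 ± 0.05 with a 95% interval of -0.06 to 0.17 (edgeR adjusted p = 0.443), and it was -0.05 with library sizes unscaled and -0.01 with upper quartile factors. The responses differed by 0.57 ± 0.07 (edgeR adjusted p = 1.16e-05).

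GMNN (ENSG00000112312.10, chr6:24774931-24786099, plus strand, 8 merged exons) encodes geminin, the inhibitor of CDT1 that the APC/C ligase removes as cells leave mitosis. It stood at 56.7 and 56.9 CPM in A431 with DMSO and at 58 and 57.4 CPM with NEDD8i. In CAL27 it stood at 50.6 and 53.3 CPM with DMSO and at 62.2 and 71.6 CPM with NEDD8i. The A431 groups did not overlap but lay almost at 1 level, and the CAL27 NEDD8i libraries were highest and also farthest from each other. The log2 change in A431 was 0.02 ± 0.07 (95% interval -0.13 to 0.18, edgeR adjusted p = 0.859), and was -0.08 with library sizes unscaled and -0.05 with upper quartile factors. In CAL27 GMNN rose by 0.36 ± 0.07, or 1.29-fold (edgeR adjusted p = 0.000392), the smallest rise of the 7 in that line. The difference between the responses, 0.34 ± 0.10, passed the test (edgeR adjusted p = 0.0154). It did not pass without A431 NEDD8i replicate 2 (0.32, edgeR adjusted p = 0.0546), without CAL27 DMSO replicate 1 (0.32, 0.0625) or without CAL27 NEDD8i replicate 2 (0.23, 0.0985).

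The balance of CDT1 to its inhibitor was followed as the log2 ratio of CDT1 to GMNN in each library, which compares libraries and not the amounts of the 2 transcripts. It was 0.78 and 0.73 in A431 with DMSO and 0.74 and 0.83 with NEDD8i. In CAL27 it was 0.88 and 0.79 with DMSO and 1.21 and 0.998 with NEDD8i. The A431 groups overlapped, and both CAL27 NEDD8i libraries lay above the other 6. The NEDD8i minus DMSO difference was 0.03 in A431 and 0.26 in CAL27, with a mean of 0.15. That mean had a two-sided exact permutation p of 0.111 when treatments were exchanged within lines, and the smallest p that the 36 arrangements allow is 0.0556. Without 1 library at a time the mean difference ran from 0.0966 to 0.2. The lowest value came without CAL27 NEDD8i replicate 1, whose ratio was the highest of the 8.

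**Figure D2:**
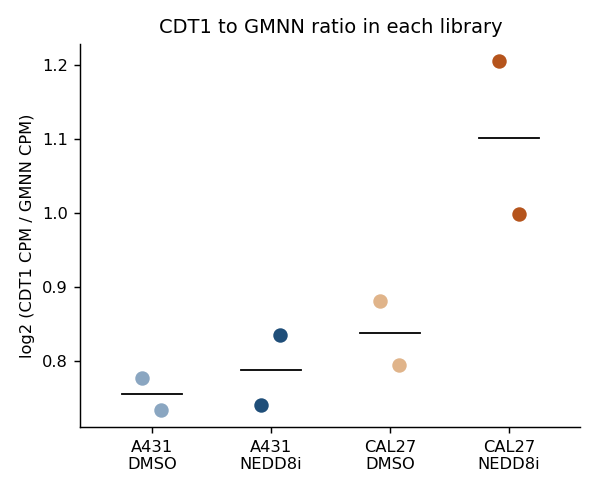
Log2 ratio of CDT1 CPM to GMNN CPM (vertical axis, not starting at 0) in each library of the 4 groups, with lines at group means. The 2 CAL27 NEDD8i libraries, at 1.21 and 0.998, lie above all others and differ from each other by more than any other pair of replicates.

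DTL (ENSG00000143476.18, chr1:212035553-212105013, plus strand, 15 merged exons) encodes CDT2, the receptor that brings PCNA-bound substrates to the ligase. Its level was 114 and 132 CPM in A431 with DMSO and 174 and 174 CPM with NEDD8i. It was 90.9 and 90.0 CPM in CAL27 with DMSO and 193 and 182 CPM with NEDD8i. No groups overlapped, although the A431 DMSO libraries were spread more widely than those of any other group of this gene. DTL rose by 0.50 ± 0.06 in A431, or 1.41-fold (edgeR adjusted p = 3.2e-06), and by 1.05 ± 0.06 in CAL27, or 2.07-fold (edgeR adjusted p = 1.7e-10). The larger rise in CAL27 passed the test of the difference, 0.56 ± 0.09 (edgeR adjusted p = 6.63e-05). Exons of the minus-strand gene INTS7 covered 0.109% of the exonic bases of DTL, and reads over shared exons were not counted.

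KMT5A (ENSG00000183955.14, chr12:123384132-123409353, plus strand, 8 merged exons) encodes the enzyme that adds the first methyl group to histone H4 lysine 20, and CRL4-CDT2 removes it in S phase. It stood at 48.6 and 46.3 CPM in A431 with DMSO and at 67.6 and 65.7 CPM with NEDD8i. In CAL27 it stood at 53.2 and 57.2 CPM with DMSO and at 84.6 and 79.5 CPM with NEDD8i. All 4 NEDD8i libraries lay above all 4 DMSO libraries. The rise was 0.49 ± 0.07 in A431, or 1.40-fold (edgeR adjusted p = 1.06e-05), and 0.57 ± 0.07 in CAL27, or 1.48-fold (edgeR adjusted p = 1.09e-06). The difference of 0.08 ± 0.09 did not pass the test (95% interval -0.12 to 0.28, edgeR adjusted p = 0.583). Reads that matched KMT5A and its processed copies equally well were dropped, so its level is uncertain. The copies KMT5AP1, KMT5AP2 and KMT5AP3 had 143, 184 and 14 counts over all 8 libraries, against 2387 to 4756 for KMT5A in each.

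TDG (ENSG00000139372.15, chr12:103965845-103988874, plus strand, 11 merged exons) encodes the glycosylase that removes thymine from mismatches with guanine and oxidised forms of methylcytosine. Its level was 33.6 and 35.6 CPM in A431 with DMSO and 77.2 and 71.1 CPM with NEDD8i. It was 58.2 and 55.1 CPM in CAL27 with DMSO and 84.8 and 87.4 CPM with NEDD8i. The A431 DMSO libraries were far below the other 6, and no groups overlapped. TDG rose 2.14-fold in A431, a log2 rise of 1.10 ± 0.07 (edgeR adjusted p = 7.02e-10), and 1.52-fold in CAL27, a rise of 0.60 ± 0.07 (edgeR adjusted p = 6.03e-07). It was the only 1 of the 7 with a smaller rise in CAL27 by the test of the difference, -0.50 ± 0.10 (edgeR adjusted p = 0.000538). A gene on the same strand shared 5.12% of its exonic bases, and its copy TDGP1 had 164 counts over all 8 libraries, so the counts of TDG leave out reads that fit both.

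SLBP (ENSG00000163950.13, chr4:1692731-1712319, minus strand, 8 merged exons) encodes the stem-loop binding protein, which histone mRNAs need for 3' end formation and translation in S phase. It stood at 88.9 and 94.1 CPM in A431 with DMSO and at 139.1 and 130.8 CPM with NEDD8i. In CAL27 it stood at 82.7 and 78.6 CPM with DMSO and at 134.7 and 139.1 CPM with NEDD8i. NEDD8i libraries were high in both lines and overlapped each other between the lines. SLBP rose by 0.56 ± 0.06 in A431, or 1.47-fold (edgeR adjusted p = 3.11e-07), and by 0.76 ± 0.06 in CAL27, or 1.70-fold (edgeR adjusted p = 3.99e-09). The difference of 0.20 ± 0.08 (95% interval 0.04 to 0.37) did not pass the adjusted test (edgeR adjusted p = 0.0594) and passed in 8 of 16 alternatives. Those that passed with every library kept were DESeq2, limma voom, library sizes unscaled, upper quartile factors, the filter of 1 CPM and counts divided by 2. The others left out A431 DMSO replicate 1 (0.25) or A431 NEDD8i replicate 1 (0.26).

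The responses of the lines were thus compared directly for all 7 genes. CDC6, CDT1, DTL and GMNN rose more in CAL27, against 14.2% of all genes with a higher response there. TDG rose less, against 19.8% of all genes with a lower response, and KMT5A and SLBP did not pass. That is 5 of 7 with a difference in either direction, against 34% of all genes. With the filter of 1 CPM, 2858 of 13747 genes had a higher and 3630 a lower response in CAL27. The median difference of the 7 was 0.34, and that of all genes was -0.04. Each difference uses the same libraries as the 2 responses it is made from, so it adds no independent samples.

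**Figure D3:**
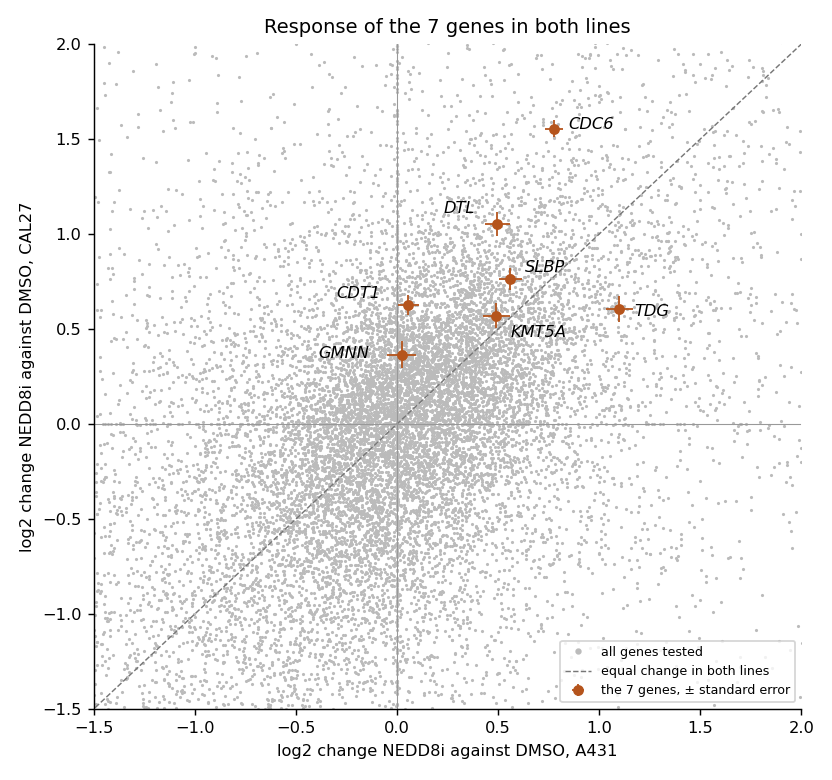
Log2 change with NEDD8i in A431 (horizontal) and CAL27 (vertical) for the 7 genes (orange, ± approximate SE) over all genes tested (grey, genes beyond the axes not drawn). CDT1 and GMNN lie near 0 for A431 and above 0 for CAL27, CDC6 and DTL lie above the dashed line of equal change, and TDG lies below it.

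Under DMSO alone, CDC6, DTL and SLBP were lower in CAL27 than in A431, and TDG and KMT5A were higher. That is 3 genes lower, against 29% of all genes, and 2 higher, against 29.9%, or 5 in either direction, against 58.9%. With the filter of 1 CPM, 5173 of 13747 genes were higher in CAL27 and 5029 lower. TDG was higher by 0.71 ± 0.07 (edgeR adjusted p = 8.27e-08) and CDC6 lower by a log2 difference of -0.55 ± 0.05 (edgeR adjusted p = 1.17e-08). DTL differed by -0.45 ± 0.06 (edgeR adjusted p = 6.27e-06). KMT5A differed by 0.22 ± 0.07 (edgeR adjusted p = 0.00933), and did not pass without A431 DMSO replicate 2 (0.18, edgeR adjusted p = 0.0874) or without CAL27 DMSO replicate 2 (0.17, 0.129), which left TDG as the 1 gene called higher. SLBP differed by -0.18 ± 0.06 (edgeR adjusted p = 0.0108), and did not pass without the same libraries (-0.15, edgeR adjusted p = 0.076, and -0.15, 0.119). GMNN differed by -0.13 (95% interval -0.28 to 0.03, edgeR adjusted p = 0.143) and CDT1 by -0.05 (-0.16 to 0.07, edgeR adjusted p = 0.478). The sign of the CDT1 difference turned to 0.03 with library sizes unscaled. The same DMSO libraries enter the difference between the responses with the opposite sign. These comparisons are therefore not independent.

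The 7 genes followed 2 orders over the groups. CDC6, CDT1, DTL, GMNN and SLBP rose from CAL27 with DMSO through A431 with DMSO and A431 with NEDD8i to CAL27 with NEDD8i. For KMT5A and TDG the first 2 places were exchanged, with A431 with DMSO lowest. CAL27 with NEDD8i was thus highest for all 7. How many of all genes follow either order was not counted, so the orders are no result about the 7. Neighbours in the order whose libraries overlapped were the A431 groups of CDT1 and the NEDD8i groups of SLBP. The neighbouring groups of GMNN in A431, and the DMSO groups of GMNN and of CDT1, did not overlap in their libraries but did not pass the test.

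Patterns were also compared as distances between the 4 group means of log2 CPM, each gene centred on its own mean, which describes likeness over 4 points and says nothing of shared control. Among the 7, DTL and SLBP were nearest to each other (0.226 log2 units), followed by CDT1 and GMNN (0.274). GMNN and CDC6 were farthest apart (1.02). Among 10323 candidate genes with a mean of at least 5 CPM, OAZ1 was nearest to CDT1 (0.0485), BCAS2 to GMNN (0.0286), EIF1 to CDC6 (0.161) and PTCHD3P1 to DTL (0.0619). MAST2 was nearest to KMT5A (0.0242), NUP58 to TDG (0.101) and TEAD1 to SLBP (0.0431). The next 2 were ATXN1L and MAD2L2 for CDT1, ILF2 and C17orf80 for GMNN, ZNF367 and PHF13 for CDC6, and ISG20L2 and GMFB for DTL. They were MRPS15 and SLC25A17 for KMT5A, CHUK and ZNF26 for TDG, and ADPRS and CBFB for SLBP. No gene of the 7 was among the 3 nearest of another.

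Around DTL stand the other parts of the ligase and the clamp, the first of several lists. Beside each list's counts stand the shares of all genes, 22.5% higher and 21.1% lower in A431 and 23.2% and 26.4% in CAL27. For counts in both lines the shares are 13.3% higher and 12.8% lower. No list was tested as a set, and counts near these shares are no result about the list. Of CUL4A, CUL4B, DDB1, RBX1, DDA1 and PCNA, 2 were higher and 3 lower in A431, and 3 were higher and none lower in CAL27. The log2 change of the scaffold CUL4A was 0.04 in A431 and 0.01 in CAL27 and passed in neither. The scaffold CUL4B fell in A431 (-0.60 ± 0.07, edgeR adjusted p = 7.42e-07) and had a change of 0.08 ± 0.06 in CAL27, a difference that passed. DDB1, the adaptor that holds CDT2, fell slightly in A431 (-0.18 ± 0.04) and had a change of 0.06 in CAL27, which passed in DESeq2 alone among the alternatives (0.09, DESeq2 adjusted p = 0.0231). RBX1, the RING subunit that binds the E2 enzyme, was called in opposite directions, -0.55 ± 0.07 in A431 and 0.23 ± 0.07 in CAL27, and the CAL27 call did not pass with library sizes unscaled (0.15, edgeR adjusted p = 0.0678). DDA1, a small subunit beside DDB1, rose by 0.44 ± 0.07 and 0.80 ± 0.07. PCNA, the sliding clamp that presents the substrates, rose by 0.20 ± 0.04 in A431, which did not pass with library sizes unscaled (0.10, edgeR adjusted p = 0.077), and by 0.57 ± 0.04 in CAL27.

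Transcripts of 4 other substrates of CRL4-CDT2 were examined, of which 2 were higher and none lower in A431, and 1 higher and 1 lower in CAL27. CDKN1A, which encodes the cyclin-dependent kinase inhibitor p21, went from 40.3 ± 1.90 to 198 ± 2.73 CPM in A431 and from 30.7 ± 0.104 to 224 ± 1.03 CPM in CAL27 (SD, n = 2). Its log2 rise was 2.30 ± 0.05 in A431 and 2.87 ± 0.06 in CAL27 (edgeR adjusted p = 1.96e-15 and 1.29e-16). FBH1, a DNA helicase, was higher in A431 (0.33 ± 0.07) and lower in CAL27 (-0.25 ± 0.07). The CAL27 call did not pass without CAL27 DMSO replicate 1 (-0.23, edgeR adjusted p = 0.0709) or replicate 2 (-0.23, 0.068), or without CAL27 NEDD8i replicate 2 (-0.19, 0.092), and without CAL27 DMSO replicate 1 no gene of the list was lower. ERCC5, the XPG nuclease, had changes of -0.86 and -0.87 and passed in neither line (edgeR adjusted p = 0.0621 and 0.0612), at a level of only 0.957 to 2.86 CPM, and 87.9% of its exonic bases lay in a readthrough gene. In A431 it passed without CAL27 NEDD8i replicate 1, with library sizes unscaled, with upper quartile factors, in limma voom, in the fit of the line alone and with counts divided by 2 (adjusted p = 0.0277 to 0.0481 over these edgeR and limma fits), each of which made 1 gene lower there. In CAL27 it passed without CAL27 DMSO replicate 2 (edgeR adjusted p = 0.0367) or CAL27 NEDD8i replicate 2 (0.0419), and with library sizes unscaled (0.0422), which made 2 genes lower. POLD4, a subunit of DNA polymerase delta, changed by 0.20 and 0.12 and passed in neither line.

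Factors that turn over the proteins of the 7 genes by other routes, or shield them, were 12. In A431, 3 were higher (CUL1, SKP1 and USP37) and 8 lower, and in CAL27 3 were higher (SKP1, FBXO11 and USP37) and 4 lower (CDC20, HUWE1, CCNF and DCAF11). CDC20, the mitotic activator of the APC/C, fell by 2.05 on the log2 scale in A431 and by 1.32 in CAL27. CCNF, whose product cyclin F targets CDC6, fell by 0.80 and 0.69. HUWE1, another ligase for CDC6, fell by 0.33 and 1.02. Without A431 DMSO replicate 1 or A431 NEDD8i replicate 1, 5 were lower in A431, and without the latter 1 was higher.

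CDC6 and CDT1 load the helicase onto ORC. Of the 6 ORC and 6 MCM2-7 genes, 1 was higher and 5 lower in A431, and 3 were higher (ORC6, MCM7 and ORC1) and 7 lower in CAL27. MCM2, MCM3, MCM4, MCM5 and MCM6, all subunits of the helicase, were lower in both lines. ORC6, a subunit of the origin recognition complex, was higher in both, by 0.53 ± 0.07 and 1.45 ± 0.07. MCM6 fell by 1.26 in CAL27 and by 0.14 in A431. The A431 call of MCM6 did not pass without A431 DMSO replicate 2 (-0.09, edgeR adjusted p = 0.306), without the NEDD8i replicate 1 of A431 (-0.16, 0.0754) or replicate 2 (-0.10, 0.282), or either CAL27 DMSO library (-0.13 in each, 0.0652 and 0.0668), and it did not pass without the filter on low counts (-0.13, 0.0608). MCM3 fell by 0.39 and 0.61. Without either CAL27 NEDD8i library, and in the fit of the line alone, 2 genes of the list were higher in A431.

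A further list held 15 genes that fire licensed origins. Of these, 6 were higher and 5 lower in A431 (CDC7, DBF4, GINS1, RECQL4 and TICRR), and 9 were higher and 2 lower (CDC7 and DBF4) in CAL27, with 6 higher in both. CCNE1, which encodes cyclin E1, rose by 2.10 ± 0.11 in A431 and 1.25 ± 0.11 in CAL27, and CCNE2 by 1.32 ± 0.10 and 1.61 ± 0.10. DONSON, which helps to assemble the active helicase, rose by 0.87 ± 0.07 and 1.02 ± 0.07. CDC7 and DBF4, the kinase that starts the helicase and its activator, were lower in both. Exons of other genes covered 47.6% of CCNE2 and 13.6% of DONSON. Without A431 DMSO replicate 1, 3 genes were lower in A431. Of the relatives of geminin, GMNC did not pass the filter on low counts, and the changes of MCIDAS, 0.16 and -0.24, did not pass.

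**Figure D4:**
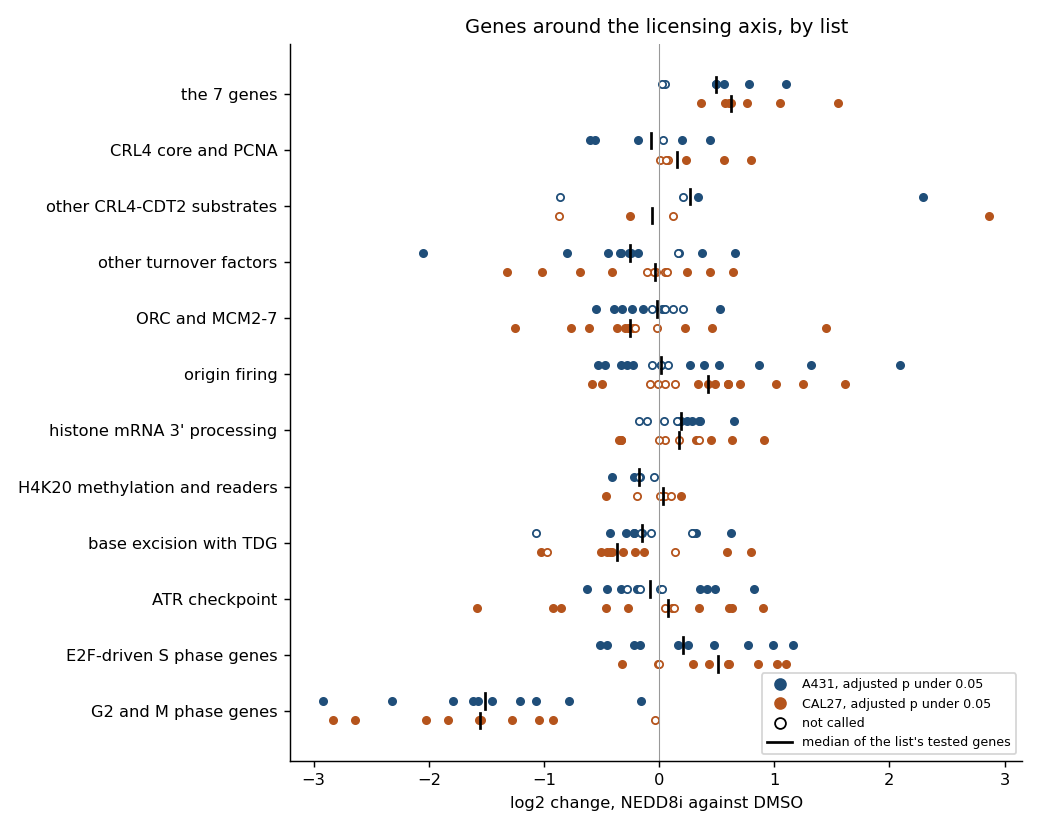
Log2 change with NEDD8i of each tested gene in the 7 and in the lists around them (blue A431, orange CAL27, filled where the adjusted p was under 0.05, black bars at medians). The 7 genes lie at or to the right of 0 in both lines, the G2 and M phase genes lie to the left, and the other lists spread over both sides.

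SLBP acts with the machinery that cuts histone mRNAs. Of 11 histone mRNA processing factors, 6 were higher and none lower in A431, and 4 were higher (ERI1, LSM10, NPAT and ZNF473) and 3 lower (CPSF2, CPSF3 and SYMPK) in CAL27. With library sizes unscaled, as with upper quartile factors, 3 were higher and 2 lower in A431, and with a filter of 1 CPM 1 was lower. Without A431 NEDD8i replicate 1 or replicate 2, 3 and 2 were higher. LSM10, part of the U7 particle, changed by 0.36 ± 0.12 and 0.32 ± 0.11, and ERI1, an exonuclease on the stem-loop, by 0.24 ± 0.09 and 0.45 ± 0.09. ERI1 in A431 (edgeR adjusted p = 0.0487) did not pass without any 1 of the A431 libraries or the CAL27 DMSO libraries (edgeR adjusted p = 0.0661 to 0.195). Nor did it pass with library sizes unscaled (0.14, edgeR adjusted p = 0.254), upper quartile factors (0.17, 0.157), no filter on low counts (0.25, 0.0647), the replicate block (0.24, 0.05002) or DESeq2 (0.24, DESeq2 adjusted p = 0.0747). LSM10 did not pass in A431 without A431 DMSO replicate 2 (0.36, edgeR adjusted p = 0.0515) or without A431 NEDD8i replicate 1 (0.26, 0.182), or in CAL27 without CAL27 DMSO replicate 2 (0.29, 0.142) or CAL27 NEDD8i replicate 1 (0.15, 0.378). With library sizes unscaled LSM10 passed in neither line (0.25, edgeR adjusted p = 0.0849, in A431 and 0.24, 0.0891, in CAL27), and with upper quartile factors it did not pass in A431 (0.29, 0.0554).

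Of 6 tested genes that extend or read the mark set by KMT5A, none was higher and 2 lower in A431 (NCAPD3 and PHF8). In CAL27, 1 was higher (NCAPG2) and 1 lower (TP53BP1). With library sizes unscaled 5 were lower in A431, and 4 with upper quartile factors. Without either A431 NEDD8i library or either CAL27 DMSO library 1 was lower in A431. Without CAL27 DMSO replicate 1 or CAL27 NEDD8i replicate 1, and with library sizes unscaled, none was higher in CAL27. The rises of KMT5A itself passed under every alternative.

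Of 12 base excision repair and demethylation genes around TDG, 3 were higher (LIG3, MBD4 and TET3) and 5 lower (among them APEX1, SMUG1, UNG and XRCC1) in A431, and 2 were higher (MBD4 and POLB) and 8 lower in CAL27. MBD4, the other glycosylase for thymine opposite guanine, was the only 1 of the 12 to rise in both lines, by 0.32 ± 0.06 and 0.80 ± 0.07. It rose more in CAL27 (0.48 ± 0.09), whereas TDG rose more in A431. XRCC1, a scaffold of the repair complex, fell by 0.43 and 0.32. XRCC1 in CAL27 did not pass without CAL27 DMSO replicate 1 (-0.27, edgeR adjusted p = 0.117) or CAL27 NEDD8i replicate 2 (-0.30, 0.062). Without A431 DMSO replicate 1 or A431 NEDD8i replicate 1, 3 of the list were lower in A431, and without A431 NEDD8i replicate 2, 1 was. Without CAL27 DMSO replicate 1 or CAL27 NEDD8i replicate 2, 4 were lower in CAL27.

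The ATR checkpoint restrains replication when DNA is damaged or copied again. Of 12 of its genes, 4 were higher (CLSPN, HUS1, RAD1 and TIPIN) and 4 lower (ATR, ETAA1, TIMELESS and WEE1) in A431, and 4 were higher (CLSPN, RAD1, RAD9A and TIPIN) and 5 lower (ATR, ATRIP, ETAA1, RAD17 and TIMELESS) in CAL27. The median log2 change of the 12 was -0.08 in A431 and 0.08 in CAL27, against -0.01 and -0.04 for all genes. ATR, the kinase itself, fell from 79.9 to 26.7 CPM in CAL27, a log2 change of -1.58 ± 0.07 (edgeR adjusted p = 2.41e-12). Its change in A431, -0.19 ± 0.06, did not pass without A431 DMSO replicate 2 (-0.15, edgeR adjusted p = 0.148) or without A431 NEDD8i replicate 2 (-0.12, 0.281). CLSPN, which encodes the mediator claspin, rose by 0.83 ± 0.10 and 0.90 ± 0.09. ETAA1, an activator of ATR, fell by 0.63 and 0.85. Without either CAL27 DMSO library or CAL27 NEDD8i replicate 1, and with DESeq2, 3 of the list were lower in CAL27.

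Transcripts of cell cycle phases were also examined. The summed level of 10 E2F-driven S phase genes that are not among the 7 was 1875 to 1883 CPM in A431 with DMSO and 2133 to 2157 CPM with NEDD8i, and 1407 to 1409 and 2235 to 2316 CPM in CAL27. In A431 RRM2 alone went from 449 to 764 CPM, a larger step than that of the sum. TK1 fell there from 405 to 285 CPM and RRM1 from 430 to 370 CPM. Of the 10 genes, 6 were higher and 4 lower in A431 (POLA1, PRIM1, RRM1 and TK1), and 7 were higher and 1 lower (PRIM1) in CAL27. Without A431 NEDD8i replicate 1, 2 were lower in A431, and without either CAL27 DMSO library or CAL27 NEDD8i replicate 2, and with DESeq2, none was lower in CAL27. E2F1, the transcription factor, rose by 0.99 ± 0.07 in A431 and 0.86 ± 0.07 in CAL27, RRM2, a subunit of ribonucleotide reductase, by 0.77 ± 0.04 and 1.02 ± 0.04, and the flap nuclease gene FEN1 by 0.25 ± 0.05 and 1.10 ± 0.05. The summed level of 10 G2 and M phase genes was 1992 to 2013 CPM in A431 with DMSO and 775 to 811 CPM with NEDD8i, and 2784 to 2869 and 1062 to 1100 CPM in CAL27. All 10 were lower in A431 and 9 in CAL27, and CDK1 was the 1 that did not pass in CAL27. KIF20A, a mitotic kinesin, had log2 changes of -2.92 and -2.83, the kinase gene PLK1 of -2.32 and -2.64 and the kinase gene AURKA of -1.79 and -2.03. The part of these shifts in the changes of the 7 genes was not tested.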

How the data were processed

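The 8 deposited tables hold whole-number counts of reads per gene. Alignment was to GRCh38 by STAR, per the submitters' processing notes, with no version named. The counter featureCounts 2.0.8, per the file headers, counted exons of the basic GENCODE 39 models, ignoring strand, dropping reads with several places or genes, and counting each mate of a pair. Of the gene counts from 1 to 40, 70.2% to 76.7% were even, so counting errors are too small. The kit, QuantSeq FWD per the labels' protocols, reads 3' ends.

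Differences were tested with the quasi-likelihood test of edgeR 4.0.16 (R 4.3.3, TMM factors, filterByExpr), 1 fit over the 4 groups with 4 residual and 12.3 prior degrees of freedom. Benjamini-Hochberg adjustment ran over 18738 genes, with calls under 0.05. The approximate SE is the log2 change over the root of F, and 95% intervals follow from it. A library's 3 counts are 0.048 to 0.0612 CPM. The ratio of CDT1 to GMNN was tested by exact permutation. Alternatives were DESeq2 1.42.0, limma 3.58.1 (voom), other scalings and filters, each line alone, counts divided by 2, a replicate block, and each library left out. Only the main edgeR fit was tried on simulated data, with changes put into A431 with NEDD8i. The comparison of the lines under DMSO and the alternatives were not tried in this way. Shared exons were found with GenomicRanges 1.54.1.

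The 7 genes, the 12 pathway lists and the 4 marker lists were chosen with earlier results of these data known. Named beside the 7 are all genes of the ligase and substrate lists. Of each other list, up to 3 genes called in both lines in 1 direction with the largest mean change are named, and for each of the 7 the 3 nearest patterns. Other genes named beside counts of 5 or fewer were chosen after their values were seen. A result that this rule selects is not reported here.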

Additional observations from a re-analysis of the deposited data

Results flagged for a closer look

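For 5 of the 7 genes the responses of the 2 lines differed by the test of the difference itself (edgeR's quasi-likelihood test, CAL27 response minus A431 response on the log2 scale). Of all genes tested, 34% also passed it, 14.2% with a higher and 19.8% with a lower response in CAL27. These shares also stand beside the genes named below. The difference was 0.57 for CDT1, 0.34 for GMNN, 0.78 for CDC6 and 0.56 for DTL. It was -0.50 for TDG, the only negative value among the 5. The GMNN difference did not pass without A431 NEDD8i replicate 2 (0.32, edgeR adjusted p = 0.0546), CAL27 DMSO replicate 1 (0.32, 0.0625) or CAL27 NEDD8i replicate 2 (0.23, 0.0985).

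Among the ligase parts the same test gave 0.36 for DDA1, 0.37 for PCNA, 0.68 for CUL4B, 0.24 for DDB1 and 0.79 for RBX1. Among the other substrates it gave 0.57 for CDKN1A and -0.58 for FBH1. DDA1 did not pass without A431 NEDD8i replicate 2 (0.31, edgeR adjusted p = 0.0523) or CAL27 NEDD8i replicate 1 (0.28, 0.0546).

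Larger rises or smaller falls in CAL27 were found for CDC20 (0.73), ORC6 (0.92), MBD4 (0.48), RRM2 (0.25) and FEN1 (0.85). Smaller rises or larger falls were found for HUWE1 (-0.69), MCM6 (-1.12), MCM3 (-0.22), CCNE1 (-0.84), ATR (-1.39), PLK1 (-0.32) and AURKA (-0.24). MCM3 did not pass without A431 DMSO replicate 2, A431 NEDD8i replicate 1, either CAL27 DMSO library or CAL27 NEDD8i replicate 1 (-0.23 to -0.16, edgeR adjusted p = 0.0517 to 0.108), or with upper quartile factors (-0.15, 0.126). PLK1 did not pass without A431 DMSO replicate 2, A431 NEDD8i replicate 1, CAL27 DMSO replicate 1 or CAL27 NEDD8i replicate 2 (-0.28 to -0.21, edgeR adjusted p = 0.0517 to 0.161), or with upper quartile factors (-0.24, 0.0755). AURKA did not pass without A431 DMSO replicate 2, A431 NEDD8i replicate 1, either CAL27 DMSO library or CAL27 NEDD8i replicate 2 (-0.23 to -0.17, edgeR adjusted p = 0.125 to 0.212). It also did not pass with upper quartile factors (-0.16, edgeR adjusted p = 0.152) or in DESeq2 (-0.20, DESeq2 adjusted p = 0.0781).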

How the results depend on the processing

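The 5 rises in A431 and 7 in CAL27 passed under all 17 alternatives of each comparison, and the replicate block left these counts at 5 and 7. With library sizes unscaled, log2 changes that did not pass changed sign in A431 for CDT1 (-0.047), GMNN (-0.080) and CUL4A (-0.065), and in CAL27 for CUL4A (-0.072), CUL4B (-0.0013) and DDB1 (-0.024), as did the DMSO difference of CDT1 (0.032). With upper quartile factors they did so in A431 for CDT1 (-0.015), GMNN (-0.047) and CUL4A (-0.032). With 1 library left out at a time, POLD4 in A431 ran from -0.0062 (without A431 DMSO replicate 1) to 0.46. In CAL27, POLD4 ran from -0.045 and CUL4A from -0.018 (each without CAL27 NEDD8i replicate 2) to 0.26 and 0.065, and CUL4A was also below 0 without CAL27 DMSO replicate 1. Under DMSO, the count of the 7 genes higher in CAL27 was 1 in place of 2 with the replicate block, where KMT5A was at 0.19 (edgeR adjusted p = 0.0724), and 1 to 2 with a library left out. The SLBP difference under DMSO did not pass with library sizes unscaled (-0.10, edgeR adjusted p = 0.131) or upper quartile factors (-0.14, 0.0515). Replicate numbers did not pair the samples (r of deviations 0.00559 in A431 and -0.03 in CAL27). The other 270 summary values kept their side, where a count did so by staying within 1.5 times its main value. The count of all genes called higher in A431, for example, was 4224 in the main fit and 3466 with library sizes unscaled. The 270 include alternatives of the CDT1 to GMNN ratio. Their permutation p could not fall under 0.05, so only a change of sign could have counted. Of 2718 values of single genes and lists, 2574 kept theirs, 66 lost and 18 gained a call, and 46 counts moved by over 1.5 times. The 3 nearest patterns of each gene, checked in an alternative chosen after seeing the data, were the same 3 with library sizes unscaled and with upper quartile factors. Except for the smaller number of libraries where 1 was left out, the cause of these changes was not tested. Only 2 libraries a group limit every interval, and counts came from 3' ends of RNA alone. Just 1 time was measured, and the sources used here do not give the dose.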
